A study of Mus musculus with 22 samples.

Results

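Medullary epithelial cells (MECs) of the thymus from Aire knockout (KO) mice given both drugs of the study, the combination titled Etopo Topo and written EtopoTopo here, were compared with MECs from KO mice given the vehicle DMSO. The members were chosen by array title, and they are the 2 KO EtopoTopo arrays and the 3 KO DMSO arrays, 5 of the 22 arrays of the series. All 5 arrays carried RNA of female C57Bl/6 mice of genotype Aire-/-, and the cells were sorted as live, CD45-negative cells with little Ly51 and much MHC class II. The KO DMSO mice were 6 weeks old and the KO EtopoTopo mice 4 weeks old, so age and drug treatment cannot be told apart in this comparison by design. Wild-type (WT, Aire+/+) arrays served for the comparison between genotypes, with 3 WT EtopoTopo arrays at 4 weeks and 3 WT DMSO arrays, 2 at 6 weeks and 1 at 4 weeks. On 2 of the 3 WT EtopoTopo arrays, replicates 1 and 2, the treatment field named Etopo alone while the title named both drugs, and the title was followed. Single-drug KO arrays, 3 KO Topo and 2 KO Etopo, all came from mice 6 weeks old. The labels state no dose and no treatment time, and they leave unsaid whether the RNA of an array came from 1 mouse or several. The p-values therefore reflect variation among arrays, which may be technical.

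Aire is a chromatin-associated regulator through which mature MECs transcribe genes of many peripheral tissues, and developing T cells that bind the products are deleted or diverted. Etopo and Topo are abbreviations in common use for etoposide, which traps DNA topoisomerase II on cut DNA, and topotecan, which does the same for topoisomerase I. Topoisomerases relieve the twisting of DNA during transcription and replication, have been found together with Aire in protein complexes, and are needed to complete cell division. Because the mice compared here lacked Aire, the comparison addresses what the drug pair does to MEC transcripts without Aire, and its difference from WT addresses which changes differ with the genotype.

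The promoter sequences of 3 division genes that fell are shown first, because they stand among the mitosis genes that fell and hold motifs more frequent in mitosis promoters than in all promoters. Each is the 120 bases before a RefSeq transcription start on the gene's own strand, in assembly GRCm38.p6. Capitals mark TTTGAA, the core of the cell cycle genes homology region, and CCAAT, the CCAAT box, on either strand (TTCAAA and ATTGG when reversed). The windows are chr11:99024190-99024309 on the minus strand for Top2a, chr10:69352913-69353032 on the minus strand for Cdk1 and chr7:135716380-135716499 on the minus strand for Mki67.
Top2a: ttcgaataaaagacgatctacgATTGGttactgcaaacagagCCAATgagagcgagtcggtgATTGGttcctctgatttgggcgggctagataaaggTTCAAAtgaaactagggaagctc
Cdk1: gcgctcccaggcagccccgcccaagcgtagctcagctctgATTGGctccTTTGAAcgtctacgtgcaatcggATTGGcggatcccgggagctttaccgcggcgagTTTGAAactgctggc
Mki67: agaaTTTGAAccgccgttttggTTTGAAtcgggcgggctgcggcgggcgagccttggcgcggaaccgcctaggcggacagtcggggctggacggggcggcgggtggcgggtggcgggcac
These windows held 1 TTTGAA and 3 CCAAT for Top2a, 2 of each for Cdk1, and 2 TTTGAA with 0 CCAAT for Mki67. Not every gene that fell held them. The same 120 bases held 0 TTTGAA and 1 CCAAT for Bub1b, a mitosis gene, and for Rrm2, a replication gene. For Nusap1, another mitosis gene that fell, they held 0 of each.

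Before the gene results, the arrays themselves have to be described, because KO EtopoTopo replicate 1 stood apart. Values are log2 of the deposited intensities. Its span from the 10th to the 90th percentile was 3.89 log2 units, against 4.68 in KO EtopoTopo replicate 2 and 4.92 to 5.01 in the 3 KO DMSO arrays. Its Pearson correlation over genes was 0.961 with replicate 2 and at most 0.947 with any KO DMSO array, whereas replicate 2 reached 0.978 to 0.987 with the KO DMSO arrays. Dim genes read higher and bright genes lower on replicate 1. With genes cut into 5 equal groups from dimmest to brightest, its median difference from the KO DMSO mean ran 0.57, 0.40, 0.06, -0.30 and -0.50, and that of replicate 2 ran 0.14, 0.09, 0.01, -0.08 and -0.07. After quantile normalization, which gives every array the same distribution, every such median lay between -0.06 and 0.06. Among the WT arrays, EtopoTopo replicates 1, 2 and 3 spanned 4.66, 4.32 and 4.33 log2 units, and the DMSO arrays 4.92, 4.56 and 4.66. KO DMSO replicate 1 differed in another way. The thymocyte list (28 of 33 genes measured) averaged 8.78 on it, against 7.67 and 7.47 on the other two KO DMSO arrays and 7.61 and 7.42 on the KO EtopoTopo arrays, and Ptprc, which encodes CD45, read 10.04 there against 7.48 and 7.55. Changes below are therefore given as deposited, and again after quantile normalization, without KO EtopoTopo replicate 1 or without KO DMSO replicate 1 where those matter.

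**Figure D1:**
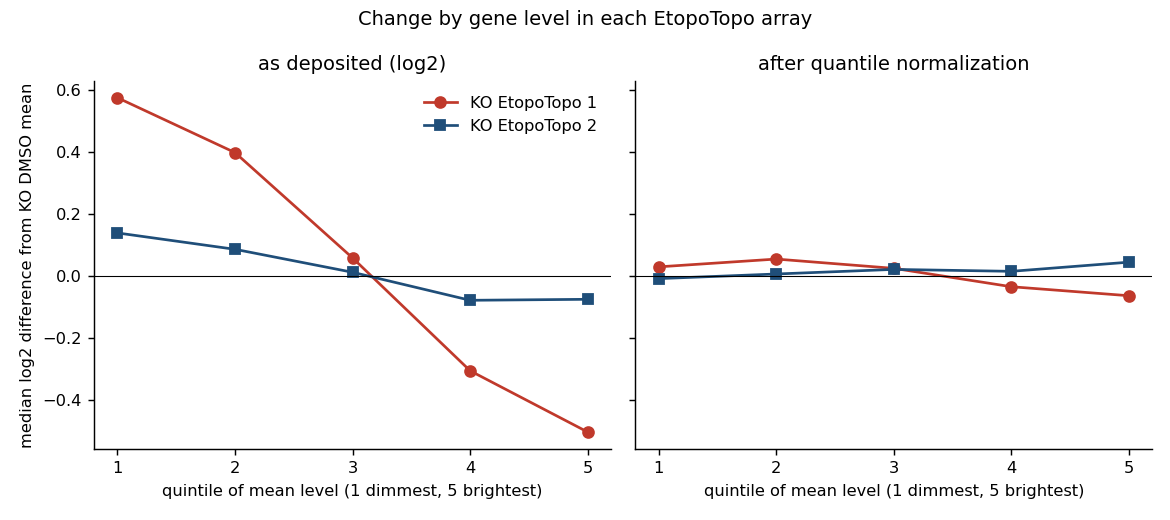
Median log2 difference of each KO EtopoTopo array from the KO DMSO mean (vertical axis) in 5 equal groups of genes ordered by mean level (horizontal axis), as deposited at left and after quantile normalization at right. Replicate 1 runs from 0.57 in the dimmest group to -0.50 in the brightest, replicate 2 stays between -0.08 and 0.14, and both lie near 0 after normalization.

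In all, 19752 genes were tested in KO EtopoTopo against KO DMSO. With limma and a Benjamini-Hochberg adjusted p under 0.05, 2194 genes rose (11.1%) and 2319 fell (11.7%), and 82 of the former and 251 of the latter changed at least 2-fold. Of the genes that rose, 92.8% differed more from the KO DMSO mean on replicate 1 than on replicate 2, with medians of 0.82 and 0.33, and of those that fell 88.3% did, with medians of -0.89 and -0.41. After quantile normalization 1399 rose (7.08%) and 1458 fell (7.38%), and 863 (4.37%) and 1178 (5.96%) were called both ways in 1 direction. Without replicate 1, a fit in which the lone array is assumed to vary like the other groups, 32 genes rose (0.162%) and 36 fell (0.182%), and 26 and 34 of these were also called with both arrays. Without KO DMSO replicate 1, 1082 rose (5.48%) and 1820 fell (9.21%). With age in weeks added as a covariate, 5 genes rose (0.0253%) and 0 fell, although 2038 and 1830 had an unadjusted p under 0.05. Those 5, chosen here for that call, were Olfr214, Prap1, Gsdma2, Nppa and Hamp2. Age does not vary within either KO group, so the age term of that fit came from WT arrays alone (WT DMSO and WT Etopo, each with 2 arrays at 6 weeks and 1 at 4 weeks) and assumes the same age effect in KO.

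Aire itself read high on every array, KO arrays included, and why was not tested. Its log2 intensity was 12.89, 12.88 and 12.96 in KO DMSO and 11.43 and 12.61 in KO EtopoTopo, against 12.24 to 12.44 in WT DMSO, so it does not check the genotype labels. The Aire-dependent antigens did separate the genotypes: Csn1s2a, a milk casein that depends on Aire in MECs, read 7.12, 6.78 and 6.63 in KO DMSO and 10.97, 10.52 and 10.83 in WT DMSO. Aire transcript fell by 0.89 (SE 0.28, adjusted p = 0.0291) in KO EtopoTopo as deposited, and was lower by 0.63 (adjusted p = 0.0631) after quantile normalization. Levels of 3 mature MEC markers are given next, out of a list of 33 measured genes. On that list 14 genes fell as deposited (42.4%, against 11.7% of all genes) and 0 rose. The 3 therefore show that such transcripts were present and do not stand for the list. Epcam, an epithelial adhesion molecule, read 10.48 to 10.81 in KO DMSO and 10.51 and 10.37 in KO EtopoTopo, and Cd80, a costimulatory ligand of mature MECs, read 12.47 to 12.60 and 12.33 to 12.34. Cd74, the invariant chain of MHC class II, read 13.54 to 13.62 in KO DMSO and 13.21 and 13.54 in KO EtopoTopo, and none of the 3 passed the test.

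Among the drugs' own targets, only topoisomerase II alpha changed by much. Top2a, the topoisomerase II isoform of dividing cells, read 9.37, 8.72 and 9.36 in KO DMSO and 7.32 and 7.70 in KO EtopoTopo. Both drug arrays lay below all 3 vehicle arrays, by 1.64 (SE 0.30, adjusted p = 0.00297), and the difference was -1.67 (adjusted p = 0.00337) after quantile normalization and -1.45 (adjusted p = 0.0851) without replicate 1. Top1, the target of topotecan, read 9.26, 9.30 and 9.23 in KO DMSO and 8.88 and 9.20 in KO EtopoTopo (difference -0.23, SE 0.18, adjusted p = 0.328). Top2b, the isoform of non-dividing cells, read 9.08, 8.41 and 8.50 against 8.25 and 8.40 (difference -0.34, SE 0.22, adjusted p = 0.242). Of the 13 measured members of a list of topoisomerases and of enzymes that clear trapped topoisomerases, 2 rose (15.4%) and 4 fell (30.8%). Over all genes 11.1% rose and 11.7% fell, and the medians were -0.28 for the list and 0.06 for all genes. The enzymes that cut trapped topoisomerases off DNA both fell, Tdp2 (which releases topoisomerase II) by 0.88 (adjusted p = 0.0047) and Tdp1 (topoisomerase I) by 0.63 (adjusted p = 0.0123), and Tdp1 lost the call after quantile normalization (difference -0.32, adjusted p = 0.107). Top3a, a decatenating topoisomerase, fell by 0.37 (adjusted p = 0.0466), and its partner Rmi2 rose by 0.63 (adjusted p = 0.0253) as deposited, against 0.43 (adjusted p = 0.0504) after quantile normalization.

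Genes of mitosis fell together. Of 59 measured genes of a mitosis list, 32 fell and 0 rose, which is 54.2% against 11.7% of all genes, and the median difference was -0.57. After quantile normalization 34 fell (median -0.68), and without replicate 1 the median was -0.51 with 2 genes called. The groups did not overlap for 42 of the 59, all lower in KO EtopoTopo, against 18.9% of all genes. On the list's mean, the 3 KO DMSO arrays read 8.32, 8.03 and 8.35 and the KO EtopoTopo arrays 7.63 and 7.66. Both drug arrays were thus below every vehicle array, also after quantile normalization, where they read 7.48 and 7.69 against 8.05 to 8.34.

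Cdk1, the kinase that drives entry into mitosis, read 10.19, 10.24 and 10.44 in KO DMSO and 8.62 and 9.34 in KO EtopoTopo. It fell by 1.31 (SE 0.19, adjusted p = 0.000826), and it was 1 of the 2 mitosis genes called without replicate 1 (difference -0.95, adjusted p = 0.0428). Mki67, which coats mitotic chromosomes, read 10.10, 9.26 and 9.66 against 8.09 and 8.71 and fell by 1.27 (SE 0.24, adjusted p = 0.00408). Bub1b of the spindle checkpoint, Ccna2 (cyclin A2) and Nusap1, a spindle protein, fell by 1.17, 1.08 and 1.05. With age as a covariate the list's median was -0.58 and 0 of its genes were called.

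The motif shown in capitals above was counted over the 250 bases before each start on both strands. TTTGAA occurred in 20 of the 51 mitosis genes with a promoter sequence (39.2%) and in 15.7% of the 15483 measured genes with one. CCAAT occurred in 36 of the 51 (70.6%) and in 38.8% of all, and both motifs together in 18 (35.3%) and in 5.68%. Of the 25 mitosis genes that fell and had a promoter sequence, 12 held TTTGAA, 20 held CCAAT and 11 held both. TTTGAA and CCAAT can share an end base where they adjoin, and a match is a description of these bases only.

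Genes of DNA replication followed the mitosis genes. Of 51 measured, 24 fell (47.1%, against 11.7% of all genes) and 1 rose (Tk1, a thymidine kinase), with a median of -0.45, and 26 fell after quantile normalization. Without replicate 1 the median was -0.41 and 0 were called in limma, and with age as a covariate it was -0.37 with 0 called. Rrm2, the regulated subunit of ribonucleotide reductase, read 9.28, 8.78 and 9.16 in KO DMSO and 7.74 and 8.09 in KO EtopoTopo and fell by 1.16 (SE 0.23, adjusted p = 0.00477). Its partner subunit Rrm1 fell by 1.05, the clamp loader Rfc3 by 1.02 and Uhrf1, which carries DNA methylation through replication, by 0.99. Without KO DMSO replicate 1, the array with the high thymocyte transcripts, 16 replication genes and 24 mitosis genes fell. Of 27 measured core and linker histone genes (59 asked for), 11 fell (40.7%, against 11.7% of all genes) and 0 rose, with a median of -0.45. H1f5, a linker histone made in S phase, fell by 1.35 (adjusted p = 0.00557), and H2ac4, a core histone, read 6.03, 6.05 and 7.38 against 4.07 and 5.44.

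**Figure D2:**
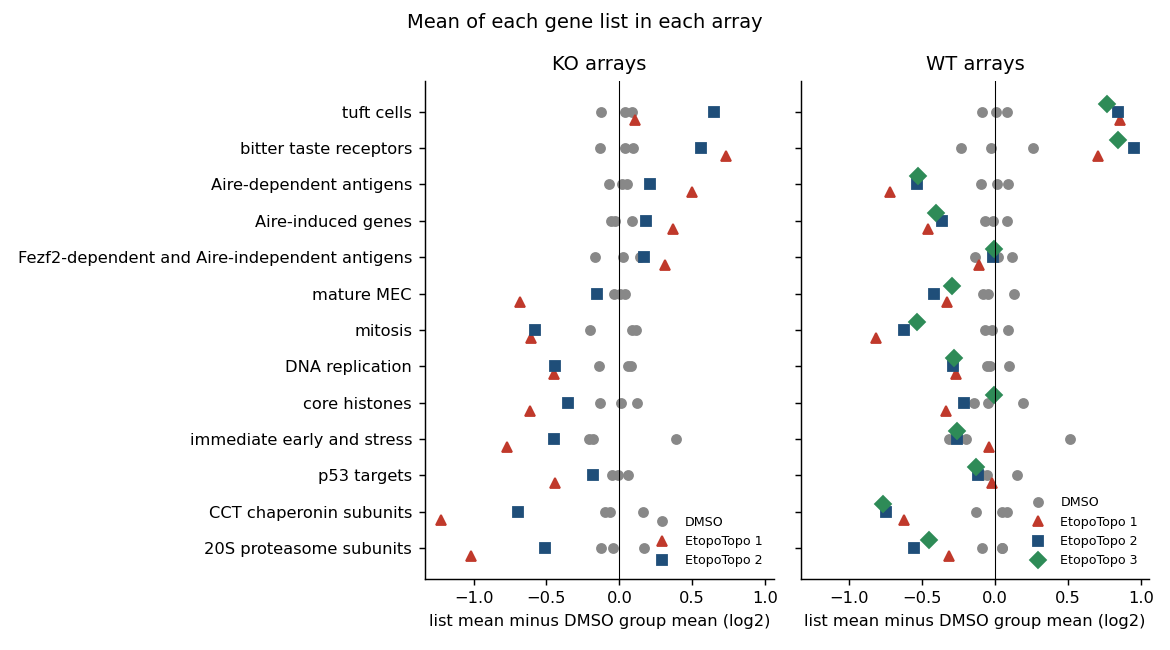
Mean log2 level of each gene list per array minus the mean of its DMSO group (horizontal axis), for KO arrays at left and WT arrays at right, with grey circles for DMSO arrays and coloured symbols for each EtopoTopo array. Mitosis means lie below every DMSO array in both genotypes, bitter taste receptor means lie above, and the Aire-dependent antigens and Aire-induced genes lie above DMSO in KO and below DMSO in WT.

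None of the measured p53 targets, the usual readout of DNA damage, rose as deposited. Of 31 measured, 0 rose and 5 fell (16.1%, near the 11.7% of all genes), with a median of -0.30, and after quantile normalization 2 rose and 2 fell. Without KO EtopoTopo replicate 1 the median was -0.13. Neither Cdkn1a nor Bax is among the 31, so the list does not speak to them. Sesn2 and Gadd45a, both stress-induced p53 targets, fell by 0.89 (adjusted p = 0.0158) and 0.82 (adjusted p = 0.0138). Mdm2, the ubiquitin ligase that p53 induces against itself, read 11.50, 10.93 and 10.67 in KO DMSO and 10.01 and 10.73 in KO EtopoTopo, and the groups overlapped (difference -0.67, adjusted p = 0.0523). Of 41 measured genes of DNA break signalling and repair, 7 fell (17.1%, against 11.7% of all genes) and 0 rose. After quantile normalization 11 fell (26.8%, against 7.38% of all genes) and 2 rose (4.88%, against 7.08%). Xrcc5, the Ku80 end-joining subunit, fell by 1.09 (adjusted p = 0.00621) and Brca1 by 0.60 (adjusted p = 0.0117). Bard1, its partner, fell by 0.65 on the probe used, while the gene's 3 probes ranged from -0.65 to 0.33.

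Transcripts of the immediate early and stress response were lower. Of 36 measured genes, 11 fell (30.6%, against 11.7% of all genes) and 0 rose, with a median of -0.63. After quantile normalization 5 fell (13.9%, against 7.38% of all genes, median -0.40). Without KO EtopoTopo replicate 1 the median was -0.34 and 0 were called in limma, and with age as a covariate it was -0.19 with 0 called. Jun, a subunit of the AP-1 factor, read 12.20, 11.58 and 11.75 in KO DMSO and 9.90 and 10.50 in KO EtopoTopo. The groups did not overlap, and Jun fell by 1.65 (SE 0.26, adjusted p = 0.00175). Dusp1, a phosphatase that switches off MAP kinases, read 12.61, 11.41 and 11.40 against 9.51 and 11.02 and fell by 1.54 (SE 0.43, adjusted p = 0.0203). Dnajb1, a heat-shock co-chaperone, read 10.81, 10.46 and 10.71 against 8.59 and 9.52 and fell by 1.61 (SE 0.33, adjusted p = 0.00552). Fosb, a partner of Jun, read 12.33, 10.42 and 10.43 in KO DMSO and 8.95 and 9.91 in KO EtopoTopo (difference -1.63, adjusted p = 0.0898). KO DMSO replicate 1 was the highest array for Fosb, Dusp1 and Jun, and it was also the array with high thymocyte transcripts, whose part in this result was not tested. Without that array 4 of the 36 genes fell (11.1%, near the 9.21% of all genes) and the median was -0.32. In WT 1 of the 36 fell (2.78%, against 7.28% of all genes).

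The transcripts of tuft cells, chemosensory epithelial cells that form a MEC subset, moved the other way. Of 27 measured tuft genes, 12 rose (44.4%) and 1 fell, against 11.1% and 11.7% of all genes, with a median of 0.46. After quantile normalization 14 rose and 0 fell (median 0.53), and without replicate 1 the median was 0.69 with 5 genes called. The list's mean was 8.89, 8.95 and 8.73 in KO DMSO and 8.97 and 9.51 in KO EtopoTopo, so replicate 1 lay just above the vehicle arrays and replicate 2 well above. With age as a covariate the list's median was 0.29 and 0 of its 27 genes were called. The one gene that fell, Spib, an Ets factor that other MECs express too, did so by 0.80 (adjusted p = 0.0461), was lower by 0.48 (adjusted p = 0.155) after quantile normalization, and stood at 0.05 (adjusted p = 0.96) on normalized values without replicate 1.

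Gng13, a G protein subunit of taste signalling, read 9.09, 9.69 and 9.52 in KO DMSO and 10.29 and 10.62 in KO EtopoTopo. It rose by 1.02 (SE 0.17, adjusted p = 0.00185), by 1.30 after quantile normalization and by 1.18 (adjusted p = 0.0123) without replicate 1. Sh2d6, a tuft-cell adaptor, read 9.06, 9.41 and 9.08 against 9.76 and 10.52 and rose by 0.95 (SE 0.24, adjusted p = 0.0127). Gnat3 (gustducin), Alox5ap of leukotriene synthesis and the succinate receptor Sucnr1 rose by 0.85, 0.74 and 0.86. Trpm5, the cation channel of taste transduction, named after its values were seen, read 9.50, 9.80 and 9.17 in KO DMSO and 9.41 and 10.74 in KO EtopoTopo. Its groups overlapped, its difference of 0.58 missed the threshold (adjusted p = 0.104), and it was called after quantile normalization (0.85, adjusted p = 0.0285) and without replicate 1 (1.25, adjusted p = 0.0248). In bulk RNA such as this, more cells of a type and more RNA per cell cannot be told apart.

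Bitter taste receptors, which tuft cells use to sense ligands, rose in 14 of 34 measured members and fell in 0 (median 0.58). The share that rose was 41.2%, and over all genes 11.1% rose and 11.7% fell. These are dim genes, at means of 5.81 to 6.04 in KO DMSO, 6.68 and 6.51 in KO EtopoTopo, and after quantile normalization 5 rose (median 0.23) while without replicate 1 the median was 0.51 with 0 called at the adjusted threshold. Tas2r123 read 6.95, 7.07 and 6.53 against 8.32 and 8.28 and rose by 1.45 (SE 0.28, adjusted p = 0.00421), at 1.38 after quantile normalization. Tas2r108 rose by 1.10 (adjusted p = 0.0101), and Tas2r115 rose by 1.26 (adjusted p = 0.0298) and missed the threshold after quantile normalization (1.13, adjusted p = 0.0608). With age as a covariate the list's median was 0.23 and 0 of its genes were called. For 28 of the 34 receptors both drug arrays lay above all 3 vehicle arrays, against 27.3% of all genes. The same held for 838 of the 1190 olfactory and vomeronasal receptors, so it was not particular to the bitter receptors. Those 1190 receptors, which are also dim, had 499 called higher (41.9%, against 41.2% of the bitter receptors and 11.1% of all genes) at a median of 0.49. After quantile normalization 124 were called higher (10.4%, against 14.7% of the bitter receptors and 7.08% of all genes), at a median of 0.16. Without replicate 1 their median was 0.22, and with age as a covariate 0.42. In WT 125 of them rose (10.5%) at a median of 0.31. Of the bitter receptors 21 rose in WT (61.8%) at a median of 0.64, beside 3.6% of all genes. The mean of the 1190 was 5.21 to 5.25 in KO DMSO, 5.99 on replicate 1 and 5.46 on replicate 2. Dim genes in general read higher on replicate 1, and the part of this in the receptor counts was not tested.

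**Figure D3:**
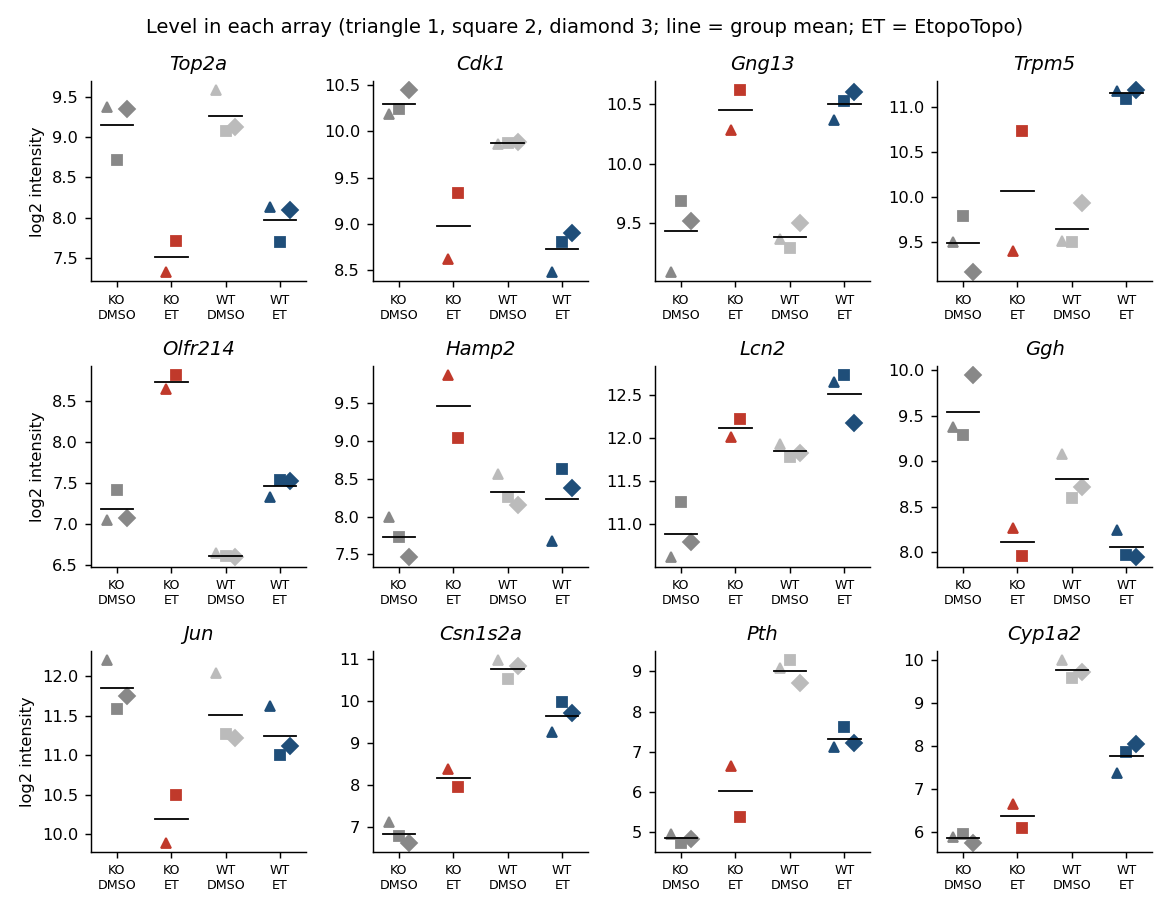
Log2 intensity (vertical axis) of 12 genes in each array of KO DMSO, KO EtopoTopo (KO ET), WT DMSO and WT EtopoTopo (WT ET), with symbols by replicate number and a line at each group mean; the vertical axes differ between genes and do not start at 0. Top2a and Cdk1 are lower with EtopoTopo in both genotypes and Gng13 is higher in both, whereas Csn1s2a, Pth and Cyp1a2 are lower with EtopoTopo in WT and not in KO.

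The increases with the largest fitted change began with Scgb1a1. This gene, which encodes the secretoglobin of airway club cells, read 9.27, 9.47 and 8.84 in KO DMSO and 12.26 and 11.10 in KO EtopoTopo. Both drug arrays lay above every vehicle array, by 2.49 (SE 0.37, adjusted p = 0.000894), and the difference was 1.91 (adjusted p = 0.0515) without replicate 1. Hamp2 and Hamp, the hepcidin genes of liver, rose by 1.73 (SE 0.25, adjusted p = 0.000826) and 1.64 (SE 0.27, adjusted p = 0.0018). Hamp2 read 8.001, 7.74 and 7.46 against 9.87 and 9.05 and was called without replicate 1 (1.31, adjusted p = 0.0436) and with age as a covariate (1.95, adjusted p = 0.0486). Olfr214, an olfactory receptor, read 7.05, 7.42 and 7.07 in KO DMSO and 8.64 and 8.82 in KO EtopoTopo and rose by 1.55 (SE 0.16, adjusted p = 0.000101). Its difference held at 1.56 after quantile normalization, 1.64 (adjusted p = 0.0022) without replicate 1 and 1.64 (adjusted p = 0.0128) with age.

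Next in size came a zinc finger gene and chemosensory receptors, Zfp455 (1.45, adjusted p = 0.00529), Tas2r123, Olfr101 (1.43, adjusted p = 0.0018) and Vmn2r9 (1.40, adjusted p = 0.0172). Further down, several genes of secreted or surface proteins were called as deposited and after quantile normalization. They were the beta-defensin Defb3 (1.39), the surface antigen Psca (1.39), pancreatic ribonuclease Rnase1 (1.36), the caseins Csn1s2a (1.33) and Csn3 (1.30) and pancreatic phospholipase Pla2g1b (1.28). Psca read 7.28, 7.24 and 6.78 against 8.599 and 8.38, close to each other on the drug arrays, and Pla2g1b 6.94, 7.17 and 6.69 against 8.88 and 7.55, far apart. Lcn2, the iron-scavenging lipocalin of inflamed epithelia, was chosen after its values were seen, as 1 of the 32 genes higher without replicate 1. It read 10.61, 11.25 and 10.79 against 12.01 and 12.22 and rose by 1.23 (SE 0.18, adjusted p = 0.000916), or 1.34 (adjusted p = 0.0123) without replicate 1.

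Aire-induced genes as a list were examined on a definition that did not use these 5 arrays. The list held 463 genes lower in KO than in WT by at least 2-fold at an adjusted p under 0.05 over the 11 arrays of the Etopo and Topo groups. In KO EtopoTopo against KO DMSO, 86 of the 463 rose (18.6%, against 11.1% of all genes) and 7 fell (1.51%, against 11.7%), with a median of 0.31 beside 0.06 for all genes. Dim genes in general rose as deposited. In the 2 dimmest of the 5 level groups, 936 of 3951 and 627 of 3950 genes rose, at medians of 0.36 and 0.25. After quantile normalization 133 and 196 of these groups rose. The list is dim in KO, at a mean of 7.24, 7.39 and 7.26 in KO DMSO and 7.66 and 7.48 in KO EtopoTopo. The level groups, however, go by the mean over all 22 arrays, and on that measure the list averages 8.24. This lies in the middle group (7.60 to 8.43), where 360 of 3950 genes rose as deposited, at a median of 0.03. The part of level in the list's change was not tested. After quantile normalization 62 rose and 8 fell, with a median of 0.13 beside 0.01, and without replicate 1 the median was 0.19 with 7 genes higher and 0 lower. Both drug arrays were thus above all vehicle arrays on the mean, by less than 0.5 log2 units.

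In the WT arrays the same 463 genes went down with EtopoTopo. There 204 fell and 39 rose, against 7.28% of all genes that fell and 3.6% that rose, with a median of -0.50, and the list mean was 9.03 to 9.18 in WT DMSO and 8.63 to 8.73 in WT EtopoTopo. The difference of the EtopoTopo effect between genotypes, KO effect minus WT effect, was tested as a contrast in the same fit. Over all genes it was called higher for 465 (2.35%) and lower for 21 (0.106%), and after quantile normalization for 228 (1.15%) and 35 (0.177%). For the Aire-induced genes it was higher for 161 and lower for 4, with a median of 0.77 beside 0.03 for all genes, and without KO EtopoTopo replicate 1 it was higher for 75 and lower for 1 with a median of 0.64, against 0.618% and 0.00506% of all genes. Without the 2 WT EtopoTopo arrays whose treatment fields disagree, 92 genes were called higher and 0 lower, with 254 of the latter direction at an unadjusted p under 0.05.

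The 161 genes were 34.6% of the 465 genes with a higher difference and 34.8% of the Aire-induced list, which itself makes up 2.34% of all genes. After quantile normalization the difference was higher for 94 genes of the list and lower for 4, with a median of 0.57 beside -0.01 for all genes. Of the 465, 367 fell in WT, 164 rose in KO and 77 did both. A smaller set of 99 genes was called higher as deposited, after quantile normalization and without KO EtopoTopo replicate 1, and 67 of these (67.7%) were Aire-induced. Of the 204 Aire-induced genes that fell in WT EtopoTopo, 32 rose and 1 fell in KO, with a KO median of 0.31. The WT DMSO level of these genes is high and the KO DMSO level low, so the room to fall was unequal, and its part in the difference was not tested. WT EtopoTopo replicates 2 and 3 and both KO EtopoTopo arrays also had narrower ranges than the DMSO arrays of their genotype. In KO the spans were 3.89 log2 units on EtopoTopo replicate 1 and 4.68 on replicate 2, against 4.92 to 5.01 with DMSO. The part of these ranges in the difference was not tested.

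Csn1s2a showed both directions. In WT it read 10.97, 10.52 and 10.83 with DMSO and 9.26, 9.97 and 9.71 with EtopoTopo and fell by 1.13 (SE 0.21, adjusted p = 0.00137), while in KO both drug arrays (8.39 and 7.96) lay above the vehicle arrays. The difference between genotypes was 2.46 (SE 0.31, adjusted p = 0.000149), and 2.24 (adjusted p = 0.00378) without replicate 1. Pth, parathyroid hormone, read 4.94, 4.73 and 4.83 in KO DMSO and 6.65 and 5.37 in KO EtopoTopo, against 8.70 to 9.28 and 7.11 to 7.62 in WT. Its difference between genotypes was the highest of the named genes, 2.89 (SE 0.37, adjusted p = 0.000168).

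For other antigens the WT decrease made up most of the difference. Cyp1a2, a liver cytochrome, read 5.88, 5.94 and 5.75 in KO DMSO and 6.65 and 6.08 in KO EtopoTopo (0.51, SE 0.20, adjusted p = 0.0672), and fell by 2.00 in WT, a difference of 2.51 (SE 0.27, adjusted p = 5.38e-05). Car1 (carbonic anhydrase 1), Amtn (amelotin of tooth enamel), Mcpt2 (a mast cell protease) and Gatm of creatine synthesis had differences of 2.74, 2.67, 2.62 and 2.35, each with a rise in KO of 1.11, 0.86, 1.00 and 0.74. Of 43 measured antigens of a list known to depend on Aire, 12 rose (27.9%, against 11.1% of all genes) and 0 fell in KO (median 0.28). After quantile normalization 8 rose (18.6%, against 7.08% of all genes) and 0 fell (median 0.22). The list's mean was 7.64 to 7.76 in KO DMSO, and the part of level in its KO change was not tested. In WT 0 rose and 19 fell (44.2%, against 7.28% of all genes, median -0.42), and 19 had a higher difference (against 2.35% of all genes). Without KO EtopoTopo replicate 1, the KO median of that list was 0.14 with 1 gene called, Mucl2, and the difference was called for 10.

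**Figure D4:**
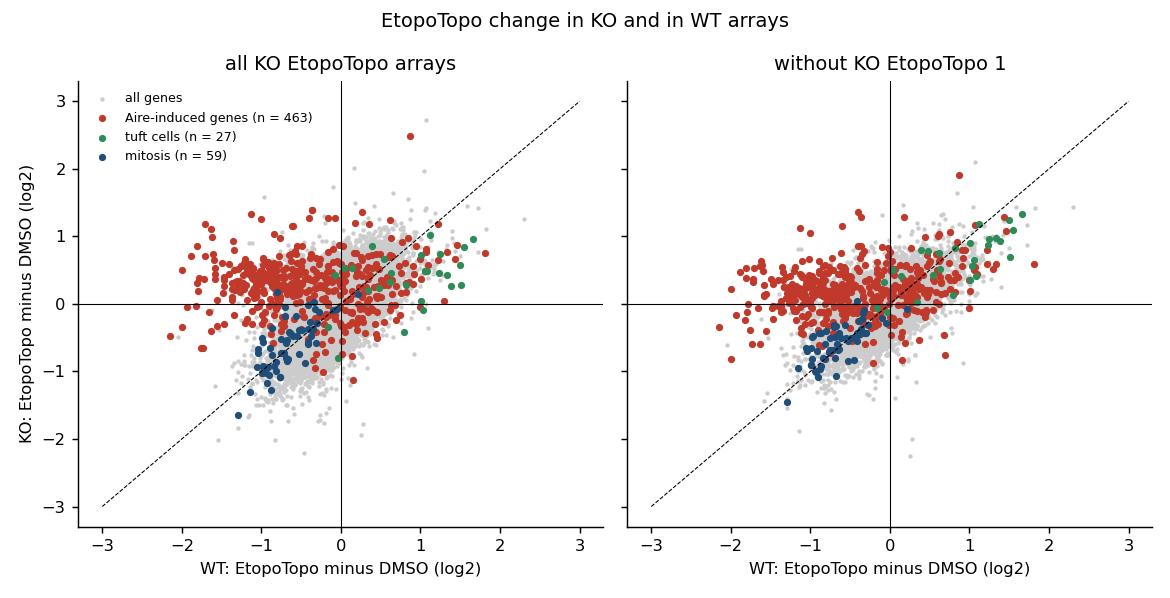
Log2 change with EtopoTopo in WT (horizontal axis) and in KO (vertical axis) for all 19752 genes, with Aire-induced, tuft and mitosis genes coloured and a dashed line of equal change; the right panel leaves out KO EtopoTopo replicate 1. Mitosis genes lie along the dashed line in the lower left, tuft genes lie mostly in the upper right and below the line (22 of 27 had a lower change in KO), and most Aire-induced genes lie left of 0 for WT and above 0 for KO.

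Few genes had a lower change in KO than in WT. Jun did (-1.39, SE 0.35, adjusted p = 0.0389), having read 11.21 to 12.04 in WT DMSO and 11.002 to 11.62 in WT EtopoTopo. So did Naaladl2, an Aire-induced peptidase-like gene that rose in both genotypes, by 0.75 in KO and by 1.81 in WT (difference -1.05, SE 0.25, adjusted p = 0.0243). Tspan8, a tetraspanin of gut epithelium, read 7.34, 7.23 and 7.43 in KO DMSO and 7.32 and 7.26 in KO EtopoTopo, and rose by 0.99 in WT (difference -1.03, SE 0.23, adjusted p = 0.0154). Krt5, a basal keratin that marks immature MECs, fell by 1.13 in KO (adjusted p = 0.00785) and was higher by 0.15 in WT (adjusted p = 0.73), with a difference of -1.28 (SE 0.34, adjusted p = 0.0466). Vav1, a signalling protein of the tuft list, had a difference of -0.96 (SE 0.25, adjusted p = 0.0408). These calls depended on the fit. With array weights 0 genes were called lower (498 at an unadjusted p under 0.05 in limma). With age as a covariate 0 of the 36 immediate early genes, Jun among them, were called lower. After quantile normalization 0 of the 20 immature MEC genes, Krt5 among them, were. Medians of the difference shrank without KO EtopoTopo replicate 1. They went from -0.45 to -0.15 (immediate early), -0.17 to -0.02 (immature MEC) and -0.54 to -0.25 (tuft). For the tuft list as a whole 18 of 27 rose in WT at a median of 1.00, and 0 had a higher and 2 a lower difference between genotypes. For mitosis genes 42 fell in WT at a median of -0.69, and the difference was called for 0 of the 59 (median 0.03).

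Genes of the mature MEC state were lower as deposited. Of 33 measured, 14 fell (42.4%, against 11.7% of all genes) and 0 rose, with a median of -0.37. After quantile normalization 5 fell (15.2%, against 7.38% of all genes) and 1 rose (median -0.16). In the brightest of the 5 level groups, 1061 of 3951 genes fell as deposited and 356 after quantile normalization. The list is bright, and its mean was 11.38, 11.42 and 11.45 in KO DMSO, 10.73 on replicate 1 and 11.26 on replicate 2. Cd83, a surface protein of mature MECs, read 9.92, 9.92 and 10.14 against 9.08 and 9.18 and fell by 0.87 (SE 0.17, adjusted p = 0.0043). Ctss, the protease that trims class II cargo, fell by 0.98 (adjusted p = 0.00989), and Relb, an NF-kB subunit needed for MEC development, by 0.84 (adjusted p = 0.0218). Cd274, the checkpoint ligand PD-L1, lost the call after quantile normalization (-0.84, adjusted p = 0.0234, and -0.55, adjusted p = 0.0924).

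Aire's partner proteins behaved alike. Of 34 measured, 15 fell (44.1%, against 11.7% of all genes) and 0 rose (median -0.38). After quantile normalization 7 fell (20.6%, against 7.38%) and 3 rose (8.82%, against 7.08%), with a median of -0.09. Srsf3, a splicing factor, fell by 1.26 and Dnmt3l, a methyltransferase cofactor, by 0.78. Of 135 genes higher in KO than in WT by the same rule as the Aire-induced list, 35 fell (25.9%) and 2 rose (1.48%) in KO EtopoTopo (median -0.29). After quantile normalization 18 fell (13.3%) and 8 rose (5.93%).

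Among antigens that do not need Aire, many of which follow the MEC factor Fezf2, 5 of 24 rose and 2 fell, with a median of 0.18. These were 20.8% and 8.33%, beside 11.1% and 11.7% of all genes. Apoc3, a liver apolipoprotein, read 10.17, 11.68 and 10.92 in KO DMSO and 12.25 and 12.11 in KO EtopoTopo and rose by 1.26 (SE 0.26, adjusted p = 0.00526). Apoa1, its partner in lipoproteins, is on both this list and the Aire-induced list, as is Krt10, so the lists are not exclusive. Apoa1 read 9.07, 10.17 and 9.74 against 10.75 and 10.29 (0.86, adjusted p = 0.0585). Maoa, a mitochondrial amine oxidase, fell by 0.97 (adjusted p = 0.00714).

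Other epithelial states changed in single genes. Of 20 measured immature MEC genes, 6 fell (30%) and 1 rose (5%), beside 11.7% and 11.1% of all genes, with a median of -0.14 and 1 call without replicate 1. Dcn, decorin, which is also on the stroma list, read 12.01, 11.89 and 11.90 in KO DMSO and 10.55 and 11.11 in KO EtopoTopo and fell by 1.11 (SE 0.15, adjusted p = 0.00063), or by 0.83 (adjusted p = 0.0228) without replicate 1. Ccn1, a matrix protein induced with the immediate early genes, fell by 1.29 (adjusted p = 0.0119). Of 34 genes of the cornified stage that follows Aire expression, 2 rose (5.88%) and 5 fell (14.7%), shares near those of all genes (median 0.02), with Cdsn, corneodesmosin, higher by 0.61 (adjusted p = 0.00989) and Dsg1b, a desmoglein, lower by 1.19 (adjusted p = 0.0144).

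Of 17 genes of cortical thymic epithelium, 1 rose (5.88%) and 4 fell (23.5%), and 0 were called without replicate 1. Ackr4, a chemokine scavenger, rose by 0.81 (adjusted p = 0.00465), and Foxn1, the thymic epithelial master factor, fell by 0.96 (adjusted p = 0.0271) as deposited but not after quantile normalization (-0.66, adjusted p = 0.0661). Psmb11, the proteasome subunit that defines cortical epithelium, read 7.22 to 7.60 in KO DMSO and 8.13 and 7.46 in KO EtopoTopo. Of 27 measured basement membrane genes 0 rose and 2 fell (7.41%, below the 11.7% of all genes), with a median of 0.05.

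Markers of other cells differed by type. Of 28 thymocyte genes 23 had a difference below 0 (26 after quantile normalization, and 14 without KO DMSO replicate 1), and 0 rose and 3 fell (10.7%), among them Cd4, a T cell coreceptor (9.59, 8.88 and 8.44 against 7.73 and 8.04, down by 1.08, adjusted p = 0.0128), and Satb1 (10.87, 9.15 and 9.19 against 8.07 and 8.67, down by 1.37, adjusted p = 0.0209). Their median was -0.52, and 0.01 without KO DMSO replicate 1. Of 16 B cell genes 4 rose (25%) and 2 fell (12.5%). Over all genes 11.1% rose and 11.7% fell. The list's mean was 8.20 to 8.30 in KO DMSO and 8.29 to 8.30 in KO EtopoTopo.

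Of 31 genes of macrophages and dendritic cells 25 had a difference above 0 (16 after quantile normalization), and 4 rose (12.9%) and 3 fell (9.68%), with the lysozymes Lyz1 and Lyz2 down by 0.98 (adjusted p = 0.00577) and 0.93 (adjusted p = 0.0192) and the fractalkine receptor Cx3cr1 up by 0.65 (adjusted p = 0.0303). Xcr1, a chemokine receptor of dendritic cells, rose by 0.64 in KO (adjusted p = 0.00569) and fell by 0.55 in WT (adjusted p = 0.00497), a difference of 1.18 (SE 0.18, adjusted p = 0.000703). Of 31 stroma and endothelium genes 1 rose and 1 fell (3.23% each, below the 11.1% and 11.7% of all genes). Of 38 interferon response genes 0 rose and 3 fell (7.89%, below the 11.7% of all genes). Usp18, which curbs interferon signalling, fell by 0.59 (adjusted p = 0.0448) as deposited but stood at 0.09 on normalized values without replicate 1. Of 32 NF-kB and cytokine genes 0 rose and 8 fell (25%), led by the inhibitor Nfkbie (10.97, 10.91 and 11.01 against 8.87 and 10.32, down by 1.37, adjusted p = 0.00378). After quantile normalization 3 fell (9.38%, near the 7.38% of all genes).

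The decreases with the largest fitted change began with Cyp26a1, Cd63 and Acat1. Cyp26a1, which degrades retinoic acid, read 9.79, 9.64 and 10.63 in KO DMSO and 7.44 and 8.56 in KO EtopoTopo and fell by 2.02 (SE 0.43, adjusted p = 0.00636). Cd63, a tetraspanin of late endosomes, read 8.95, 9.86 and 10.23 against 6.97 and 8.36 and fell by 2.01 (SE 0.46, adjusted p = 0.00929). Acat1, of ketone metabolism, read 10.02, 9.80 and 10.53 against 7.86 and 8.70 and fell by 1.84 (SE 0.29, adjusted p = 0.00175). In each of the 3 the groups did not overlap and replicate 1 was the lower drug array.

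Krt17, a keratin of stressed epithelium, shows how far some of these values rest on 1 array. It read 12.61, 12.86 and 12.81 in KO DMSO, 9.80 on replicate 1 and 12.22 on replicate 2, so a fall of 1.76 (SE 0.37, adjusted p = 0.00585) became a difference of -0.55 (adjusted p = 0.189) without replicate 1. The translation factor Eif5a (8.75 and 11.23 against 11.36 to 12.04) and the vesicle GTPase Rab1a (9.29 and 11.11 against 11.59 to 11.89) had the same form, with differences of -0.44 and -0.62 without replicate 1. For Eif5a the gene's 2 probes differed, at -1.68 and -0.74. The kinase Pim1, the eggshell-like protein gene Vmo1 and the cathepsin Ctsh fell by 1.73, 1.65 and 1.58. Ggh, which trims folate polyglutamates, and Hdac2, a histone deacetylase, were chosen after their values were seen among the 36 genes that fell without replicate 1. Ggh read 9.37, 9.29 and 9.94 in KO DMSO and 8.27 and 7.96 in KO EtopoTopo and fell by 1.42 (SE 0.20, adjusted p = 0.000654), or 1.58 (adjusted p = 0.00988) without replicate 1. Hdac2 read 10.36, 10.10 and 10.30 against 8.70 and 8.95 and fell by 1.43 (SE 0.17, adjusted p = 0.000344), or 1.30 (adjusted p = 0.00988).

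Gene length was examined because topoisomerase inhibitors are known to cut transcription of long genes in neurons. Genomic spans were taken for 99.9% of the genes. The median difference was 0.23 for genes under 10 kb, -0.02 for 10 to 30 kb, -0.07 for 30 to 100 kb, -0.02 for 100 to 300 kb and 0.12 for genes over 300 kb. Among genes above a 40th percentile of mean level the order was -0.07, -0.20, -0.21, -0.13 and -0.02, so the longest genes were not the ones that fell most. After quantile normalization the 5 medians over all genes lay between -0.04 and 0.06.

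The KO EtopoTopo arrays were last set against the KO single-drug arrays, a comparison in which age also differs with the group. Against KO Topo, 64 genes were higher (0.324%) and 155 lower (0.785%), and against KO Etopo 89 were higher (0.451%) and 226 lower (1.14%). After quantile normalization the counts were 199 (1.01%) and 263 (1.33%) against KO Topo, and 106 (0.537%) and 135 (0.683%) against KO Etopo. The share of calls that were higher moved from 29.2% to 43.1% and from 28.3% to 44.0%. Without replicate 1, 0 genes were higher and 0 lower than in KO Topo (550 and 623 at an unadjusted p under 0.05 in limma), and 0 and 1 than in KO Etopo (616 and 695).

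Against DMSO, the single-drug arrays had 50 genes higher (0.253%) and 154 lower (0.78%) with Topo, and 0 higher (0%) and 0 lower with Etopo (154 and 553 at an unadjusted p under 0.05 in limma). These comparisons share the KO DMSO arrays with the comparison above, so the members' values are only set side by side. The mitosis list had medians of -0.57 with EtopoTopo, -0.57 with Topo and -0.55 with Etopo, with 32, 23 and 0 genes called lower. Cdk1 read 9.45, 9.37 and 9.36 in KO Topo and 9.46 and 9.45 in KO Etopo, between the 2 drug-pair arrays and the vehicle arrays. The tuft list had medians of 0.46, 0.48 and 0.22. Neither list had a gene called different between KO EtopoTopo and KO Topo or KO Etopo.

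Csn1s2a was higher with the drug pair than with either drug, by 1.46 (SE 0.23, adjusted p = 0.0187) over KO Topo (6.74, 6.90 and 6.50) and by 1.52 (SE 0.26, adjusted p = 0.0181) over KO Etopo (6.73 and 6.60). Polr2k, a small subunit of the RNA polymerases, was higher than in KO Topo by 1.19 (adjusted p = 0.0353). Scgb1a1 was higher than in KO Etopo by 2.09 (adjusted p = 0.0259), and over KO Topo, whose arrays read 11.79, 10.20 and 10.27, by 0.93 (adjusted p = 0.14). Iapp, the islet amyloid peptide, and Mucl2, a mucin-like secreted protein, were higher than in KO Etopo by 1.81 (adjusted p = 0.0406) and 1.54 (adjusted p = 0.0125). Acat1 was lower than in KO Topo by 1.43 (adjusted p = 0.0351) and than in KO Etopo by 1.86 (adjusted p = 0.0184), Cops9 of the signalosome lower than in KO Topo by 1.54 (adjusted p = 0.0235), and Ggh lower than in KO Etopo by 1.53 (adjusted p = 0.0097).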

How the data were processed

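MEC RNA was hybridised to Affymetrix ST1.0 arrays. Each deposited value is the linear intensity of a probe. The submitters' processing notes list RMA and Affymetrix Power Tools and give no version. Log2 was taken without a pseudocount and nothing else was changed. Probes were named from the platform annotation (24922 probes, 21425 with 1 gene symbol, 1399 with several and 2098 with none), identifiers were checked against RefSeq GRCm38.p6 (21347 found, 0 symbols changed), and the probe with the highest mean was kept, leaving 19752 genes. In R 4.3.3, limma 3.58.1 fitted 1 mean per group over all 22 arrays (14 residual and 7.22 prior degrees of freedom), with Benjamini-Hochberg adjustment over all genes and a threshold of 0.05. It was tested on simulated data. The number of arrays, 2 and 3, limits the precision, and an exact permutation test of 2 against 3 cannot go below p = 0.1.

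Up to 15 genes each way called as deposited and after quantile normalization, with arrays that do not overlap, could be named, with up to 8 for the difference between genotypes, 6 for each single-drug comparison, and 6 per list by size of change. Predicted genes and small RNAs were skipped, and exceptions are stated. The arrays, lists and rules were chosen with earlier results of these data known, and the CCT and 20S proteasome lists after values were seen. Alternatives were quantile normalization, median centring, age as a covariate, array weights, a replicate block, leaving out dim genes (below the 40th percentile) or single arrays, the mean of probes, a variance trend, and the compared arrays alone. Promoters and gene spans came from RefSeq GRCm38.p6, which held a promoter for 15483 genes.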

Additional observations from a re-analysis of the deposited data

Results flagged for a closer look

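The EtopoTopo effect differed between KO and WT in limma (KO effect minus WT effect, log2) for 19 of the genes named, of which 14 were higher and 5 lower in KO, and no cause was tested. Pth, Car1, Amtn, Mcpt2, Cyp1a2, Csn1s2a, Gatm, Jun, Naaladl2, Tspan8 and Vav1 were named for this same difference, so their call was fixed by the naming rule. These counts therefore test nothing, and over all genes 2.35% were called higher and 0.106% lower. Higher were Pth (2.89, adjusted p = 0.000168), Car1 (2.74, adjusted p = 0.000371), Amtn (2.67, adjusted p = 0.000159), Mcpt2 (2.62, adjusted p = 0.00125), Cyp1a2 (2.51, adjusted p = 5.38e-05), Csn1s2a (2.46, adjusted p = 0.000149), Gatm (2.35, adjusted p = 0.00026) and Csn1s1, another casein, named after its values were seen (2.26, adjusted p = 0.00364). So were Hamp2 (1.82, adjusted p = 0.0036), Psca (1.76, adjusted p = 0.00404), Defb3 (1.76, adjusted p = 0.0324), Mucl2 (1.68, adjusted p = 0.00349), Csn3 (1.51, adjusted p = 0.00952) and Xcr1 (1.18, adjusted p = 0.000703). Lower were Jun (-1.39, adjusted p = 0.0389), Krt5 (-1.28, adjusted p = 0.0466), Naaladl2 (-1.05, adjusted p = 0.0243), Tspan8 (-1.03, adjusted p = 0.0154) and Vav1 (-0.96, adjusted p = 0.0408). All groups have 2 or 3 arrays, so no array was tested as an outlier.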

How the results depend on the processing

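Counts are given as genes higher and lower in limma. KO EtopoTopo against KO DMSO went from 2194 and 2319 to 1399 and 1458 after quantile normalization, 5 and 0 with age as a covariate, 0 and 0 with array weights (1476 and 2089 at an unadjusted p under 0.05), 0 and 0 with only the arrays compared (2412 and 2319 unadjusted), and 666 higher with dim genes left out, where fewer genes are tested. With single arrays left out it ranged from 32 to 5104 and from 36 to 4066, the low ends without KO EtopoTopo replicate 1 and the high ends without replicate 2, and 1082 genes were higher without KO DMSO replicate 1, 1237 without replicate 2 and 819 (1031 lower) without replicate 3. Quantile normalization without KO EtopoTopo replicate 1, added after the data were seen, gave 53 and 32.

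The difference between genotypes (465 and 21) became 228 and 35 after quantile normalization, 54 and 0 with array weights, 149 and 8 without dim genes, 186 and 4 with only the arrays compared, 92 and 0 without the WT EtopoTopo arrays whose labels conflict, and 122 to 2452 and 1 to 1726 with single arrays left out (245 higher without WT EtopoTopo replicate 1, 280 without KO DMSO replicate 1, 302 without WT DMSO replicate 2). Added after the data were seen, quantile normalization gave 66 and 2 without KO EtopoTopo replicate 1 and 263 and 48 with age.

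Against KO Topo (64 and 155), quantile normalization gave 199 and 263, median centring 351 lower (74 higher), dim genes left out 278 lower, and single arrays left out 0 to 3600 and 0 to 2847 (510 and 700 without KO Topo replicate 1, 3 and 22 without replicate 2, 0 and 3 without replicate 3). Against KO Etopo (89 and 226), quantile normalization gave 135 lower, dim genes left out 458 lower, and single arrays left out 0 to 3208 and 0 to 3028, with 0 and 0 without either KO Etopo array. Age, array weights and only the arrays compared each gave 0 and 0 in both (against KO Topo 937 and 554, 971 and 1289, 686 and 884 unadjusted, against KO Etopo 828 and 764, 887 and 1480, 836 and 1138). The cause was not tested.

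The median of the Aire-induced genes, 0.31, was 0.13 after quantile normalization and 0.19 to 0.43 with single arrays left out, and the median of genes of 100 to 300 kb minus that of genes under 10 kb, -0.25, was -0.046 after quantile normalization and -0.41 to -0.07 with single arrays left out. Spib reversed to 0.0466 and Usp18 to 0.0933 after quantile normalization without KO EtopoTopo replicate 1. Deviations of KO DMSO and KO EtopoTopo arrays with the same number correlated over genes by 0.02 for number 1 and 0.02 for number 2. With 2 KO EtopoTopo arrays the deviations mirror each other, so these values cannot decide whether numbers pair arrays. With a replicate block 1568 genes were higher and 1954 lower than in KO DMSO, and 11 were lower for the difference between genotypes (364 higher). That block gave 34 and 103 called against KO Topo and 36 and 63 against KO Etopo. The mean of probes and a variance trend kept every count within 1.5 times of its value.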

Other observations

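A protein-folding and a protein-degrading complex, looked at after their subunits were seen among the genes that fell, were lower in most subunits in KO EtopoTopo. Of the 8 subunits of the CCT chaperonin, which folds actin and tubulin, 7 fell (87.5%, against 11.7% of all genes) and 0 rose (median -0.92). Tcp1 read 10.78, 10.79 and 11.06 in KO DMSO and 8.74 and 10.02 in KO EtopoTopo and fell by 1.498 (SE 0.24, adjusted p = 0.0018), Cct6a fell by 1.43 (adjusted p = 0.0014), and Cct2 missed the threshold (-0.19, adjusted p = 0.336). The list mean was 10.49, 10.53 and 10.75 in KO DMSO and 9.36 and 9.89 in KO EtopoTopo. After quantile normalization 7 fell (median -0.69), in WT all 8 fell (median -0.68), and without KO EtopoTopo replicate 1 the median was -0.72 with 0 called in limma.

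Of 14 subunits of the 20S proteasome core, 12 fell (85.7%, against 11.7% of all genes) and 0 rose (median -0.77). Psmb4 led them, at 11.58, 10.79 and 11.68 in KO DMSO and 9.20 and 10.53 in KO EtopoTopo, and fell by 1.49 (SE 0.33, adjusted p = 0.0076). After quantile normalization 6 fell and 1 rose (median -0.49), and without replicate 1 Psma3 and Psmb7 fell (median -0.59). Because the members were picked after such falls were seen, these counts describe the arrays and test nothing.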
